A study of Mus musculus with 10 samples.

Results

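The transcripts of the mouse mitochondrial genome were examined in the RNA of 3 skeletal muscles. They are the genes whose symbol starts with mt- in the GENCODE M21 annotation (GRCm38), and 28 of the 16112 genes in the count files met this rule. Of these, 13 encode messenger RNAs (mRNAs), 2 encode ribosomal RNAs (rRNAs), and 13 encode transfer RNAs (tRNAs). The annotation holds 37 mitochondrial genes, so all 13 mRNAs, both rRNAs and 13 of the 22 tRNAs were present after the removal of genes with few reads. Total RNA had been sequenced from extensor digitorum longus (EDL, a fast hindlimb muscle), psoas (a fast hip muscle) and soleus (a slow calf muscle), in 3, 3 and 4 libraries. All animals were wild type mice of the strain labelled B6C3Fe a/a-Ttnmdm/J, bred from mice heterozygous for the titin allele mdm, and the methods give the animals as homozygous for the wild type allele. The EDL mice were 42, 54 and 44 days old for replicates 1 to 3, the psoas mice 42, 54 and 44 days, and the soleus mice 42, 44, 32 and 44 days for replicates 1 to 4. Replicates 1 and 2 of EDL and psoas and replicate 1 of soleus were labelled male, replicate 3 of EDL and psoas and replicates 2 and 4 of soleus female, and the sex of soleus 3 was not given. The labels hold 7 animal codes, 3 of which gave a pair of libraries (659 gave psoas 1 and soleus 1, 765A gave EDL 3 and soleus 2, and 765B gave psoas 3 and soleus 4), and the methods name fewer mice than there are codes.

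The mitochondrial genome is a small circle of DNA that encodes core subunits of the respiratory chain, together with the rRNAs and tRNAs needed to translate them inside the organelle. Both strands are transcribed as long precursors, and the tRNAs that lie between most of the genes are cut out to release the mRNAs and rRNAs. All other subunits of these complexes are encoded in the nucleus and imported. Slow oxidative muscle fibers are known for a high content of mitochondria.

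Total counts ranged from 12737971 to 50431713 per library. At this depth, each mRNA and rRNA had at least 1097 counts in every library, while 1 of the 13 tRNAs was at 0 in some. The muscle labels were checked with fiber type markers. The 5 slow markers (Myh7, Tnnt1, Tnni1, Atp2a2, Myl2) summed to between 15711 and 26252 CPM (normalized CPM, the count scaled to library size with TMM factors) in soleus, against 27.9 to 308 in EDL and psoas, and none of them was at 0. The fast myosin gene Myh4 had a mean of 44037 CPM in EDL, 53922 in psoas and 1228 in soleus. Markers of other cell types were present in all muscles and none was at 0 in a whole group. The 5 tendon markers summed to 464 to 500.2 CPM in EDL, 26.7 to 68.9 in psoas and 77.0 to 346 in soleus, the 5 adipocyte markers to 8.52 to 24.4, 9.21 to 47.2 and 30.6 to 138, and the 5 erythroid markers to 5.77 to 73.3, 16.4 to 137 and 3.54 to 25.7. Most of the erythroid markers are globin genes, and the methods name a Ribo-Zero Globin treatment of the libraries. The erythroid sums are therefore not read as blood content. The 5 macrophage markers summed to 61.3 to 136 CPM in EDL, 27.9 to 52.4 in psoas and 48.2 to 71.1 in soleus, the 5 endothelium markers to 101 to 183, 102 to 115 and 125 to 148, and the 5 Schwann cell markers to 32.8 to 53.1, 17.6 to 82.9 and 29.7 to 39.8. Their part in the differences between muscles was not tested.

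The libraries differed in 2 technical ways that cross the muscles unevenly. According to the methods, quality trimming was applied to EDL 1, EDL 2, psoas 1 and psoas 2, which makes 4 trimmed libraries, while no soleus library was trimmed. These were the libraries with low base quality, and all 4 were labelled male. Soleus 1 was the only untrimmed library labelled male, and soleus 3 had no label of sex. Differences by trimming can thus not be told apart from base quality, and hardly from sex, and the run of each library is not given. Cytoplasmic rRNA was also carried over to different degrees. Lars2, which encodes the mitochondrial leucyl-tRNA synthetase and was used as a mark of it, had 95378 CPM in EDL 1, 123863 in psoas 1, 172190 in psoas 2 and 76901 in soleus 1, and between 40.6 and 685 CPM in the other 6 libraries. CT010467.1, which GENCODE annotates as an rRNA gene, was likewise high in the same 4 libraries (37539 to 99780 CPM) and low in the others (74.7 to 602 CPM). Nuclear rRNA genes, Lars2 and the lincRNA genes Gm42418 and Gm26917 beside CT010467.1 together took 12.7% to 22.6% of the counts in these 4 libraries and 0.126% to 0.309% in the others. The study's mapping rates were lowest in the same 4 libraries, so low read mapping as a covariate separates the same libraries as the carry-over.

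Several mitochondrial genes could not be separated from their nuclear copies. Parts of the mitochondrial genome have been copied into nuclear chromosomes in the course of evolution. A read from an identical stretch can be placed at either locus or counted at both. The longest run of such copies in the files lies on chromosome 1 at chr1:24611535-24616197 (GRCm38, 4663 bases), where 7 annotated pseudogenes match mt-Nd4, mt-Nd4l, mt-Nd3, mt-Co3, mt-Atp6, mt-Co2 and mt-Co1. All 783 bases of Gm28437 are identical to mt-Co3, which encodes a subunit of cytochrome c oxidase. The first 60 bases of both, from the GENCODE M21 transcripts, show the identity (mt-Co3 lies on the plus strand, and this stretch at chrM:8607-8666).
mt-Co3: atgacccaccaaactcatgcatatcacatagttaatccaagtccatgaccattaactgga
Gm28437: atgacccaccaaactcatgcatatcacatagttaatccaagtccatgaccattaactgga
The copy of mt-Nd3, a complex I subunit, differs from the gene at 1 of 345 bases, T3C, counted from the first base of mt-Nd3 (chrM:9459-9518, plus strand). The differing base is in capitals.
mt-Nd3: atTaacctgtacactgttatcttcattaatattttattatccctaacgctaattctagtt
Gm28438: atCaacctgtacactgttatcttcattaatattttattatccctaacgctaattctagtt
Another copy differs more. Gm13340 on chromosome 2 differs from mt-Co1, the catalytic subunit of cytochrome c oxidase, at 37 of 1545 bases. The 60 bases chosen for holding the most differences (chrM:5787-5846, plus strand) have 4, namely A462G, A468G, T501C and C519T counted from the first base of mt-Co1, in capitals.
mt-Co1: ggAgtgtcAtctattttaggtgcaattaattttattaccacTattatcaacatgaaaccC
Gm13340: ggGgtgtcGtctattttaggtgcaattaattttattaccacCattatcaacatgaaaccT

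The counts followed the identity of the sequences. In EDL 1, mt-Co3 had 618852 counts and its copy Gm28437 had 618763, and over the 10 libraries the copy had between 0.997 and 1.0 times the count of the gene. Gm28661 had 1.0 times the count of mt-Co2 and Gm10222 had 1.01 to 1.06 times that of mt-Nd4l. Gm28438 had 0.939 to 0.994 times the count of mt-Nd3, and Gm10925 had 1.13 to 1.17 times that of mt-Atp6, a gene that shares 43 bases with mt-Atp8 in the mitochondrial genome. Of the stretches of 75 bases (1 read of a pair) in each transcript, at least 97.8% were also present in a nuclear copy for mt-Co2, mt-Atp6, mt-Co3, mt-Nd3 and mt-Nd4l. The shares were 61.5% for mt-Nd4, 39.8% for mt-Co1, 5.71% for mt-Nd2 and 1.66% for mt-Nd5. For mt-Nd1, mt-Atp8, mt-Nd6, mt-Cytb and both rRNAs, no such stretch was found in another annotated transcript of the files. Together, 10 nuclear copies took 4.23% to 8.07% of all counts, beside the counts of the mitochondrial genes themselves. Values of the genes with copies are therefore those of a shared sequence, and transcription of the copies cannot be told apart from that of the mitochondrial genes.

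**Figure D1:**
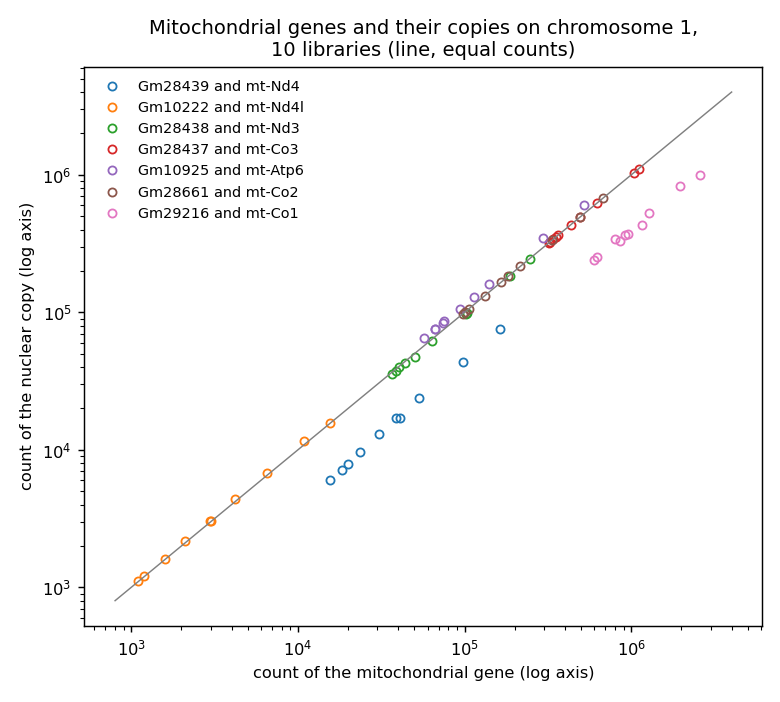
Count of each nuclear copy on chromosome 1 (vertical, log axis) against the count of the mitochondrial gene it matches (horizontal, log axis), 1 point per library and pair, with a line of equal counts. Copies of mt-Co3, mt-Co2, mt-Nd4l and mt-Nd3 lie on or near the line, the copy of mt-Atp6 lies 1.13 to 1.17 times above it, and the shorter copies of mt-Nd4 and mt-Co1 lie below it.

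Mitochondrial transcripts took a large part of every library. Their share of the counts was 15.999%, 19.6% and 16.3% in EDL 1 to 3, 21.4%, 19.1% and 16.9% in psoas 1 to 3, and 23.9%, 20.2%, 27.5% and 20.4% in soleus 1 to 4. The means were 17.3% ± 2.01 (SD, n = 3) in EDL, 19.1% ± 2.22 (SD, n = 3) in psoas and 23.0% ± 3.46 (SD, n = 4) in soleus. The lowest soleus library lay above the highest EDL library, and psoas overlapped both. With the nuclear copies added, the shares were 20.2% to 26.8% in EDL and 25.0% to 35.6% in soleus, and these overlapped. Where a read was counted at both the gene and its copy, this sum holds it more than once. How such reads were counted is not given, so the sum is not a separate check of the order above. In these bulk samples, fewer fibers of a type and less RNA per fiber cannot be told apart. A share also moves with every other gene in the library, and these are descriptions without a test.

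The rRNAs and mRNAs took similar parts. The rRNAs held 9.36%, 7.65% and 7.91% of the counts in EDL, 10.2%, 9.89% and 7.41% in psoas, and 12.2%, 11.9%, 13.7% and 10.3% in soleus. Soleus thus had the 4 highest values for rRNA, above all EDL and psoas libraries. With Lars2 and nuclear rRNA genes left out of the totals the ranges overlapped, at 7.68% to 11.5% in EDL, 7.42% to 12.8% in psoas and 10.3% to 13.9% in soleus. The mRNAs held 6.61% to 11.9% in EDL, 9.19% to 11.1% in psoas and 8.28% to 13.8% in soleus, and these ranges overlapped. The tRNA genes took 0.0120% to 0.0552% of the counts in any library. The libraries had been made with a Ribo-Zero Globin treatment to deplete rRNA and are not built to retain molecules as short as a tRNA. These classes are therefore compared between libraries, not with their content in the cell. How far the treatment acted on mitochondrial rRNA is not given in the sources used here. Its effect may differ between libraries, and its part in the rRNA shares was not tested.

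**Figure D2:**
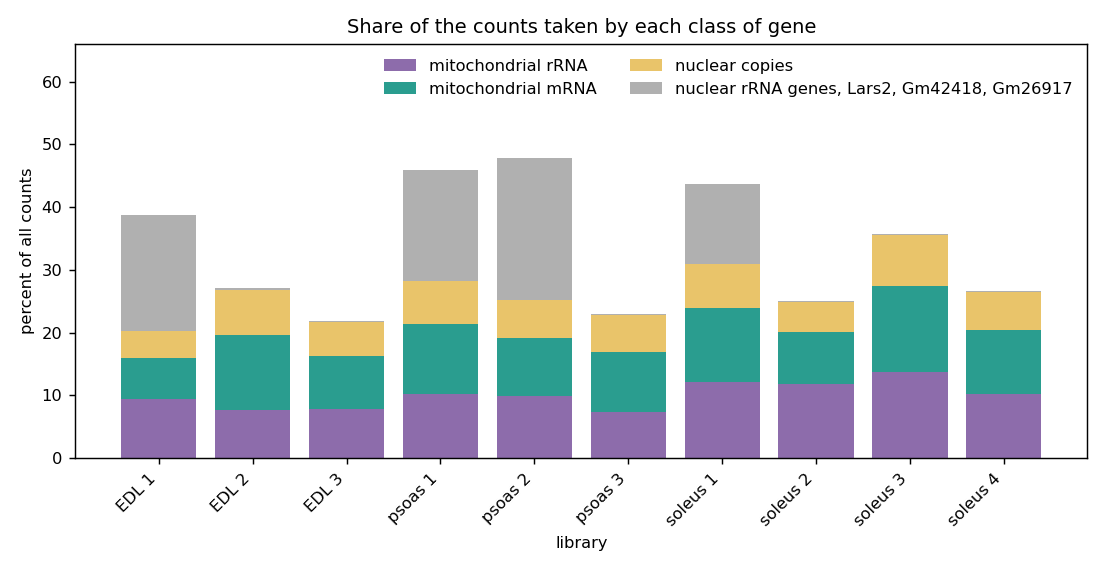
Percent of all counts in each of the 10 libraries, stacked by class of gene. Mitochondrial rRNA and mRNA reach 15.999% to 27.5% together with the tRNAs (too few to be seen), nuclear copies add 4.23% to 8.07%, and nuclear rRNA genes with Lars2 are high in EDL 1, psoas 1, psoas 2 and soleus 1 only.

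Per kilobase of transcript, the mRNAs spanned a wide range in a nearly fixed order. Mean levels over the 10 libraries (normalized CPM per kb) were 30848 ± 9107 (SD, n = 10) for mt-Co1 and 27906 ± 7897 for mt-Co3, both of complex IV. At the other end were mt-Nd5 at 628 ± 352, mt-Nd4l at 581 ± 359 and mt-Nd6 at 403 ± 240 CPM per kb, all of complex I. Spearman's rho between any 2 libraries over the 13 mRNAs was at least 0.951, as a description across genes that share these libraries and their nuclear copies.

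Some neighbours in this order changed places between libraries. mt-Co1 was above mt-Co3 in 6 of 10 libraries, mt-Atp6 above mt-Atp8 in 7, mt-Nd2 above mt-Nd4 in 4, and mt-Nd5 above mt-Nd4l in 7. The other steps were more regular. mt-Co3 was higher than mt-Co2 in 10 of 10 libraries (1.33 to 2.92 times), mt-Co2 higher than mt-Nd3 in 10 of 10 and mt-Nd3 higher than mt-Atp6 in 9. mt-Nd1, the first mRNA after the rRNAs, was higher than mt-Cytb, the last, in 10 of 10 libraries (1.38 to 2.17 times). mt-Cytb, the complex III subunit that binds the b-type hemes, was higher than mt-Nd2 in 10 of 10. mt-Nd6 is the single mRNA on the minus strand and was the lowest of the 13 in every library.

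The rRNA of the large subunit exceeded that of the small subunit. Over the 10 libraries mt-Rnr2 had a mean of 61021 CPM per kb and mt-Rnr1 of 6329 CPM per kb. Within a library, mt-Rnr2 had 7.19 to 12.98 times the level per kb of mt-Rnr1. How far the depletion of rRNA acted on either is not given.

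**Figure D3:**
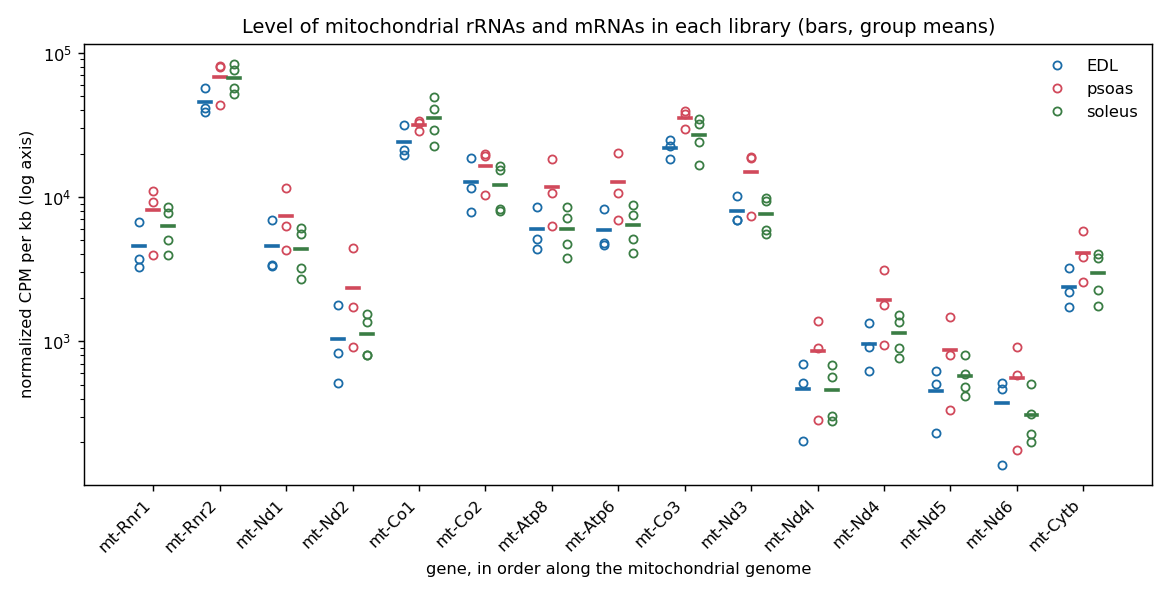
Normalized CPM per kb (log axis) of the 2 mitochondrial rRNAs and 13 mRNAs in order along the genome, 1 circle per library and a bar at the mean of each muscle. mt-Rnr2, mt-Co1 and mt-Co3 are highest and mt-Nd6 lowest, and the 3 muscles overlap for each gene except mt-Co3 in psoas and EDL.

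Differential expression among the muscles was then tested for all 16112 genes with the edgeR quasi-likelihood method, all 10 libraries entering a single fit. Calls required more than a 2-fold difference together with an adjusted p (Benjamini-Hochberg) below 0.01. None of the 28 mitochondrial genes was called in psoas vs EDL, soleus vs EDL or soleus vs psoas, where 2.11%, 5.77% and 5.69% of all genes were. With limma-voom the counts were also 0, 0 and 0, and with DESeq2 0, 1 and 0. At an adjusted p under 0.05 alone, edgeR gave 0 of 28 in psoas vs EDL, 2 in soleus vs EDL and 1 in soleus vs psoas, all of them tRNAs, against 11.1%, 18.6% and 14.5% of all genes. At an unadjusted p under 0.05 it gave 5, 2 and 4 of 28, against 29% of all genes in psoas vs EDL, 35% in soleus vs EDL and 28.4% in soleus vs psoas.

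A single mitochondrial gene had no overlap between psoas and EDL (mt-Co3, where 29.6% of all genes had none), a single one between soleus and EDL (mt-Ts1, against 29.5%), and none between soleus and psoas (25.8%). The rRNAs and mRNAs of the mitochondrial genome thus showed no called difference among the muscles, and the directions described next are those of groups of genes that share libraries, precursors and nuclear copies.

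In psoas vs EDL, all 13 mRNAs had a positive log2 fold change, from 0.38 for mt-Co2 to 1.176 for mt-Nd2, with a median of 0.86 beside 0.01 over all genes. No single mRNA passed the test. Psoas 1 was the highest of all libraries for 10 of the 13 mRNAs, and without it the median was 0.32. With low read mapping as a covariate the median was 0.55. A covariate for trimming gave 0.77, and within the trimmed and within the untrimmed libraries the median was 0.92 (replicates 1 and 2 of each muscle) and 0.49 (replicate 3 of each), with 13 of 13 mRNAs higher in psoas in both. On total counts alone the median was 0.38, while that of all genes was -0.40.

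The 2 mitochondrial subunits of ATP synthase were among the mRNAs with an unadjusted p under 0.05, with mt-Nd3 and mt-Nd4. mt-Atp6, part of the proton channel, had 3255, 5580 and 3152 normalized CPM in EDL 1 to 3, and 13783, 7251 and 4706 in psoas 1 to 3. Psoas 3 lay below EDL 2, so the groups overlapped. The log2 fold change was 1.10 (SE 0.44, n = 3 and 3, edgeR adjusted p 0.126), and that of mt-Atp8, an accessory subunit of the same enzyme, was 0.97 (SE 0.43, edgeR adjusted p 0.159).

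Among complex IV subunits, mt-Co3 had 14451, 19469 and 17679 normalized CPM in EDL 1 to 3, and 29265, 31083 and 22998 in psoas 1 to 3. All psoas libraries were above all EDL libraries, at a log2 fold change of 0.69 (SE 0.36, edgeR adjusted p 0.223), which did not pass the test. mt-Co1 and mt-Co2, which together hold the copper and heme centers of the oxidase, had log2 fold changes of 0.39 (SE 0.40) and 0.38 (SE 0.44), and both overlapped.

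The 7 complex I subunits form part of its membrane arm. mt-Nd2 had 868, 1839 and 530 normalized CPM in EDL and 4583, 1791 and 940 in psoas, so that psoas 1 was the only psoas library above EDL 2 (log2 fold change 1.176, SE 0.58, edgeR adjusted p 0.201). mt-Nd3 had 2413, 3526 and 2425 in EDL and 6533, 6466 and 2581 in psoas, where psoas 3 lay within the EDL range (0.90, SE 0.39, edgeR adjusted p 0.152). For mt-Nd4 the log2 fold change was 1.03 (SE 0.44), for mt-Nd5 0.95 (SE 0.50), for mt-Nd4l 0.86 (SE 0.57), for mt-Nd1 0.69 (SE 0.46) and for mt-Nd6 0.58 (SE 0.58). mt-Cytb of complex III had a log2 fold change of 0.77 (SE 0.41). None of these passed the test, and the SEs of 0.36 to 0.58 left 95% intervals that reached a 2-fold difference for 13 of 13 mRNAs.

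In soleus vs EDL, the mRNAs differed in both directions, 8 upward and 5 downward, between -0.27 for mt-Nd6 and 0.56 for mt-Co1, with a median of 0.11 beside -0.05 over all genes. The sign of this median rested on single libraries, at -0.16 without EDL 3, -0.13 without soleus 3 and -0.05 without EDL 1, and it was 0.38 without EDL 2, 0.25 without soleus 2, 0.21 without soleus 4, 0.07 without psoas 1 and 0.01 without soleus 1. Scaled to the summed mitochondrial mRNAs it was -0.21, beside -0.32 over all genes. mt-Co1 had 29996, 48806 and 32736 normalized CPM in EDL 1 to 3 and 62467, 34836, 76273 and 45133 in soleus 1 to 4. Soleus 1 and 3 lay above all EDL libraries and soleus 2 and 4 between them (edgeR adjusted p 0.315). The rRNAs had log2 fold changes of 0.55 (SE 0.40) for mt-Rnr2 and 0.47 (SE 0.42) for mt-Rnr1, with edgeR adjusted p values of 0.346 and 0.453. mt-Rnr2 had 90065, 65864 and 61666 normalized CPM in EDL and 120795, 90410, 131912 and 81983 in soleus. Soleus 4 lay below EDL 1, and the other 3 soleus libraries were above all EDL libraries.

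This comparison set untrimmed soleus libraries against EDL libraries of both kinds. With trimming as a covariate the median of the mRNAs was 0.72, and among the untrimmed libraries alone, an alternative chosen after seeing the data, it was 0.70 with EDL 3 as the only EDL library. Set beside EDL 3, the mean of the 4 soleus libraries was higher for 13 of 13 mRNAs. Soleus 2, which came from the same animal code as EDL 3, was higher for 8 of the 13 and lower for 5, with a median ratio of 1.02. With low read mapping as a covariate the median was 0.10. Intervals reached a 2-fold difference for 7 of the 13 mRNAs in the fit without covariate.

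In soleus vs psoas, 12 of 13 mRNAs had a negative log2 fold change, the exception being mt-Co1 at 0.16 (SE 0.37). The median was -0.78, beside 0.02 over all genes. mt-Nd3 was at 3432, 1916, 3241 and 2038 normalized CPM in soleus 1 to 4 against 6533, 6466 and 2581 in psoas, where psoas 3 lay within the soleus range (log2 fold change -0.97, SE 0.36, edgeR adjusted p 0.0995). The values for mt-Atp6 and mt-Atp8 were -0.98 (SE 0.41) and -0.96 (SE 0.40), with edgeR adjusted p values of 0.136 and 0.134. The rRNAs had -0.36 (SE 0.41, mt-Rnr1) and -0.02 (SE 0.39, mt-Rnr2).

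The sign of this median changed with the treatment of trimming. Without psoas 1 it was -0.31, with low read mapping as a covariate -0.35, and with trimming as a covariate 0.10. Among the untrimmed libraries, an alternative chosen after seeing the data, it was 0.21, with psoas 3 as the only psoas library. In the animal with code 659, soleus 1 was lower than psoas 1 for 12 of 13 mRNAs with a median log2 ratio of -0.93, but psoas 1 was trimmed and soleus 1 was not. In the animal with code 765B, whose libraries were both untrimmed, soleus 4 was lower than psoas 3 for 10 of 13 with a median log2 ratio of -0.30.

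**Figure D4:**
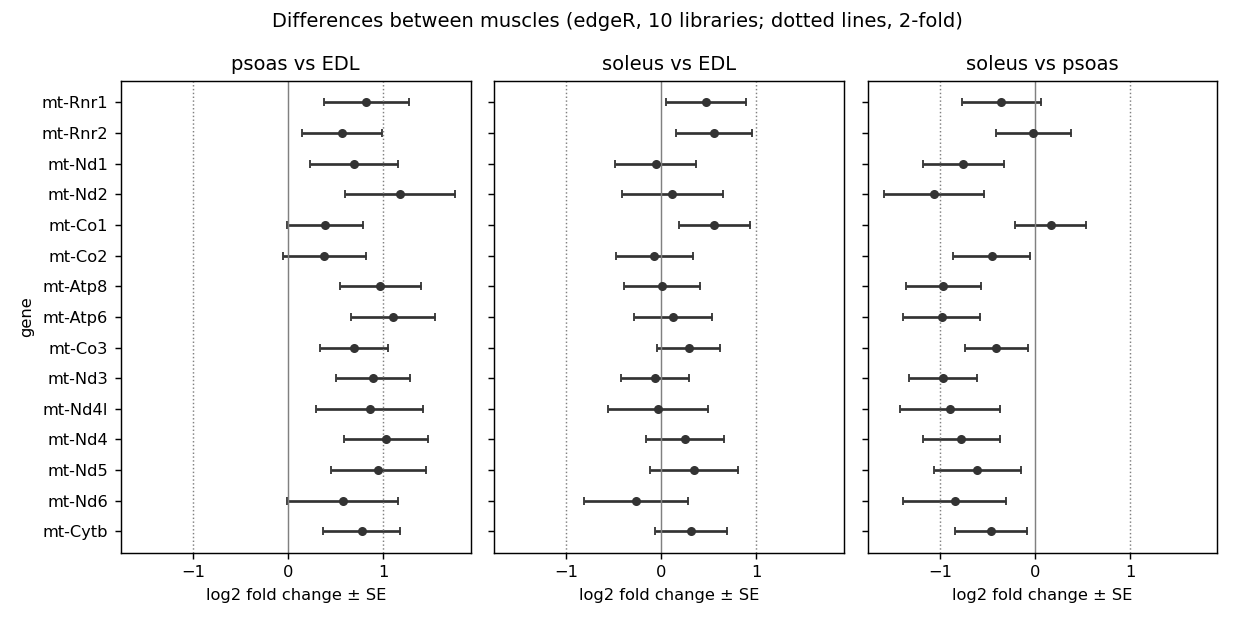
Log2 fold change of each mitochondrial rRNA and mRNA (points) with its SE (bars) in the 3 comparisons, from the edgeR fit over 10 libraries, with dotted lines at a 2-fold difference. Every mRNA is positive in psoas vs EDL, the values lie around 0 in soleus vs EDL, and all but mt-Co1 are negative in soleus vs psoas; no point passed the test.

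Ratios between mitochondrial transcripts within a library do not depend on the library total or on other genes. In all, 4 ratios per kb were compared, in 12 exact two-sided permutation tests on log2 ratios with Benjamini-Hochberg adjustment over the 12. The smallest p that 3 libraries against 3 can give is 0.1, and 4 against 3 can give 0.0571, so that no test could pass 0.05. The ratio of mt-Nd1 to mt-Rnr2 sets the first mRNA of the plus strand against the rRNA before it, and moves with any depletion of that rRNA. It was 0.0588, 0.167 and 0.0867 in EDL 1 to 3, 0.145, 0.0777 and 0.0980 in psoas 1 to 3, and 0.0722, 0.0473, 0.0726 and 0.0620 in soleus 1 to 4. All soleus libraries were below all psoas libraries (log2 difference -0.72, exact permutation p 0.0571, adjusted 0.343), and EDL spanned both.

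The ratio of mt-Cytb to mt-Nd1, the last to the first mRNA of the plus strand, was 0.658, 0.461 and 0.513 in EDL, 0.504, 0.605 and 0.609 in psoas, and 0.725, 0.645, 0.629 and 0.708 in soleus. Soleus was above psoas without overlap (log2 difference 0.24, exact permutation p 0.0571, adjusted 0.343) and overlapped with EDL. The ratio of mt-Nd6 to mt-Nd5, a minus-strand mRNA to its plus-strand neighbour, was between 0.601 and 0.923 in EDL, 0.527 and 0.719 in psoas, and 0.411 and 0.627 in soleus, with overlap in each comparison. The 2 genes share 14 bases, and the strand setting of the counting is not given in the sources used here. The ratio of mt-Rnr2 to mt-Rnr1 overlapped in all comparisons, with log2 differences between -0.24 and 0.31. For the 12 tests, adjusted p lay between 0.343 and 0.900.

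mt-Co1 took a larger part of the mRNA pool in soleus than in the other muscles. It formed 31.7% to 35.2% of the summed mRNA levels per kb in the 4 soleus libraries, 25.9% to 28.5% in EDL and 19.1% to 29.1% in psoas. mt-Co3 formed 24.5% to 28.1% in soleus, 21.2% to 30.3% in EDL and 21.2% to 29.8% in psoas. The shares of the mRNAs form a closed sum, so that they move together. Soleus lay below EDL without overlap for mt-Nd3 (6.64% to 8.14% against 8.66% to 9.37%) and mt-Nd1 (3.78% to 4.32% against 4.47% to 5.94%). It lay below psoas without overlap for mt-Atp6 (5.83% to 6.30% against 7.02% to 11.5%) and mt-Atp8 (5.55% to 6.06% against 6.38% to 10.4%). The share of mt-Co1 also moved with trimming, at 19.1% to 27.0% in the 4 trimmed and 28.5% to 35.2% in the 6 untrimmed libraries. Within the untrimmed libraries EDL 3 and psoas 3 were the only ones that were not soleus, and muscle and trimming cannot be told apart beyond them.

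Mitochondrial tRNA genes gave few counts, and those on the minus strand gave most of them. Of the 13 in the files, 7 of 8 annotated on the minus strand were present and 6 of 14 on the plus strand. The 5 tRNA genes with the highest mean CPM were all on the minus strand. The median over genes of the mean level was 20.6 CPM for the 7 on the minus strand and 0.951 CPM for the 6 on the plus strand. The 4 highest are shown with their anticodon in capitals, placed by a script as the triplet in the middle of a loop of 7 bases closed by paired bases. They are mt-Tc for cysteine (chrM:5192-5257), mt-Ts1 for serine (chrM:6870-6938), mt-Ty for tyrosine (chrM:5260-5326) and mt-Tn for asparagine (chrM:5089-5159), all written 5′ to 3′ along the minus strand (GRCm38).
mt-Tc: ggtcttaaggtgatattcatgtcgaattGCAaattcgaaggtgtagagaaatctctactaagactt
mt-Ts1: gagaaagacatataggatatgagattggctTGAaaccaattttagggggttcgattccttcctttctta
mt-Ty: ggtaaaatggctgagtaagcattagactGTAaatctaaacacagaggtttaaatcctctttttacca
mt-Tn: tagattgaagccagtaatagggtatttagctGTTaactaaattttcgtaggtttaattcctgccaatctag
These genes are shorter than 1 read of 75 bases. Each lies opposite the plus-strand precursor, and without a stated strand setting reads of that precursor cannot be told apart from reads of the tRNA.

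mt-Ts1 lies at the end of mt-Co1, with which it shares 3 bases, and was the one mitochondrial gene without overlap between soleus and EDL. It had 27.6, 10.7 and 44.7 normalized CPM in EDL 1 to 3, 12.8, 57.3 and 87.7 in psoas 1 to 3, and 144, 163, 113 and 75.3 in soleus 1 to 4. All soleus libraries lay above all EDL libraries, while psoas 3 lay above soleus 4. The log2 fold change of soleus vs EDL was 2.17 (SE 0.61, n = 4 and 3, edgeR adjusted p 0.0307). This is over the threshold of 0.01 in edgeR and just under it in DESeq2 (adjusted p 0.00988) and in edgeR without psoas 1 (adjusted p 0.00995). Over 32 settings its log2 fold change was between 1.38 and 2.70 and its adjusted p between 0.00988 and 0.331. The trimming of EDL 1 and 2 moved with it: their values were 27.6 and 10.7 CPM, that of the untrimmed EDL 3 was 44.7 CPM, and with trimming as a covariate the log2 fold change was 1.43 (edgeR adjusted p 0.208).

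The other 3 of the highest tRNA genes overlapped between the muscles. mt-Tc had 170, 224 and 33.8 normalized CPM in EDL, 24.9, 136 and 40.6 in psoas, and 73.1, 54.9, 126 and 54.2 in soleus. mt-Ty ranged from 30.1 to 149 CPM in EDL, 38.0 to 120 in psoas and 44.7 to 110 in soleus. mt-Tn was at 70.5 CPM in EDL 2 and between 4.998 and 30.5 CPM in the other libraries. The untrimmed EDL 3 had the lowest value of the EDL libraries for each of the 3.

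mt-Tl1, the tRNA gene for leucine that sits between mt-Rnr2 and mt-Nd1 (chrM:2676-2750, plus strand), divided the libraries by trimming instead. It reads as follows, with its anticodon in capitals.
mt-Tl1: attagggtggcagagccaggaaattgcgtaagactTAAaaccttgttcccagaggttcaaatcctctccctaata
It had 63, 132 and 0 counts in EDL 1 to 3, 49, 62 and 0 in psoas 1 to 3, and 1, 1, 1 and 0 in soleus 1 to 4. All 4 trimmed libraries held at least 49 counts and all 6 untrimmed ones at most 1. It was the one mitochondrial gene without overlap between trimmed and untrimmed libraries, where 7.71% of all genes had none. Summed over libraries, 306 counts stood against 3, a ratio per scaled library size of 76.3 (exact 95% binomial interval 25.9 to 372, counting error only). In the edgeR fit without covariate, its adjusted p was 0.0426 in soleus vs EDL and 0.0392 in soleus vs psoas. With trimming as a covariate both log2 fold changes turned positive, at 3.34 and 2.98 (edgeR adjusted p 0.461 and 0.467). Since all soleus libraries were untrimmed, the muscle and the trimming cannot be told apart for this gene in the fit without covariate.

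**Figure D5:**
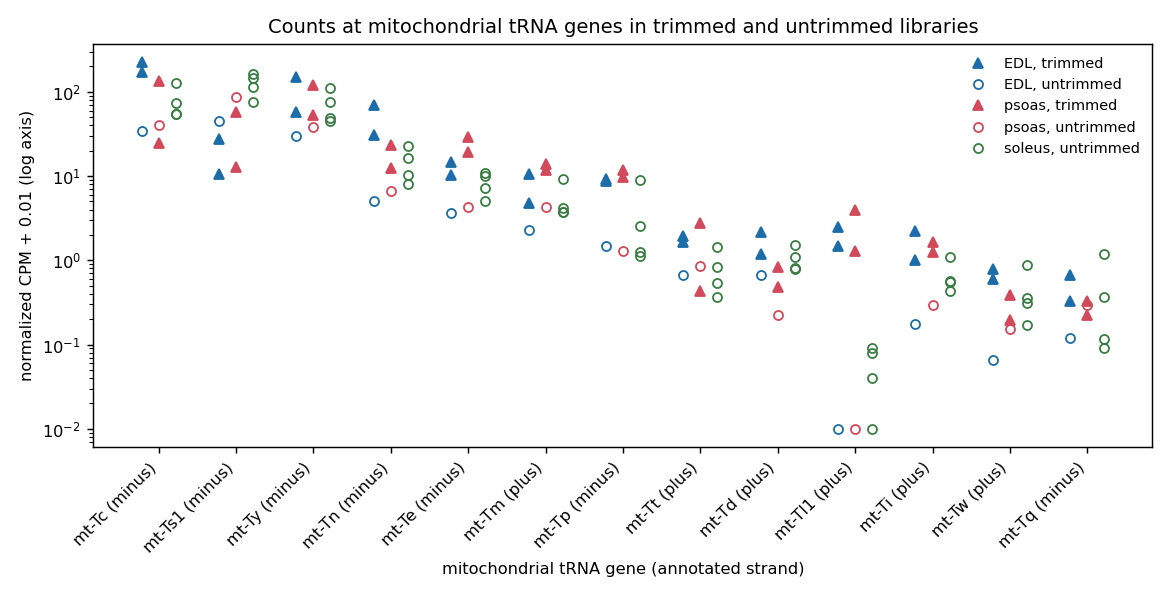
Normalized CPM plus 0.01 (log axis) at the 13 mitochondrial tRNA genes in the files, sorted by mean level, with filled triangles for trimmed and open circles for untrimmed libraries in the color of the muscle. The 5 highest genes are on the minus strand, mt-Ts1 is higher in soleus than in EDL, and mt-Tl1 is near 0 in every untrimmed library.

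The remaining tRNA genes were low. mt-Te, mt-Tm and mt-Tp had means of 11.5, 6.82 and 5.59 CPM, and mt-Tt, mt-Td, mt-Ti, mt-Tw and mt-Tq had 0.360 to 1.14 CPM. mt-Td, for aspartate, was the one mitochondrial gene with an unadjusted p under 0.05 that was lower in psoas than in EDL (log2 fold change -1.42, SE 0.53, edgeR adjusted p 0.107), from 3 to 18 counts in psoas and 12 to 114 in EDL.

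The nuclear subunits of the same complexes were far lower per gene than the mitochondrial ones. Per kb, the 3 mitochondrial subunits of complex IV averaged 19555 ± 4762 CPM (SD, n = 3) in EDL, 27831 ± 4403 in psoas and 24713 ± 8041 in soleus, against 204 ± 22.1, 246 ± 40.8 and 302 ± 34.6 for 15 nuclear subunits. Taken within each library, the ratio of mitochondrial to nuclear subunits averaged 97.2 ± 29.2 in EDL, 116 ± 29.6 in psoas and 80.3 ± 18.0 in soleus. Complex I (7 mitochondrial and 36 nuclear subunits) had ratios, in the same order of muscles, of 25.5 ± 9.67, 37.5 ± 22.3 and 18.5 ± 4.44. The ratio for ATP synthase was 40.6 ± 19.5, 70.7 ± 54.5 and 26.5 ± 6.80, and that for complex III 13.8 ± 5.67, 17.9 ± 10.7 and 11.1 ± 3.16. The mean ratio was lowest in soleus for all 4 complexes, with group ranges that overlapped in each. The single untrimmed libraries of EDL and psoas did not follow this order throughout, and the part of trimming was not tested. The untrimmed EDL 3 had ratios of 16.5, 8.37, 74.98 and 24.01 for complexes I, III and IV and ATP synthase, each below the soleus mean. The untrimmed psoas 3 had 17.2 and 10.01 for complexes I and III, below the soleus mean, and 90.3 and 29.96 for complex IV and ATP synthase, above it.

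In soleus vs EDL, 0 of the nuclear subunits passed both thresholds, and at an adjusted p under 0.05 the counts that were higher were 4 of 36 for complex I, 1 of 4 for complex II, 3 of 9 for complex III, 4 of 15 for complex IV and 4 of 18 for ATP synthase, with none lower. At an unadjusted p under 0.05 in edgeR the counts were 14, 3, 7, 8 and 12 in the same order, with none lower, where 35% of all genes passed in either direction (2736 of 16112 higher). At an adjusted p under 0.05, 9.79% of all genes were higher. The members past it were Ndufa10, Ndufb3, Ndufb7 and Ndufv1, Sdhc, Cyc1, Uqcrc1 and Uqcrq, Cox5b, Cox6a2, Cox8a and Cox8b, and Atp5d, Atp5g1, Atp5g3 and Atp5h, all but Uqcrc1 named after their values were seen. The median log2 fold changes of the 5 lists were 0.41, 0.60, 0.58, 0.49 and 0.61, beside -0.05 over all genes. Mean levels per kb of the nuclear subunits were higher in the untrimmed EDL 3 than in EDL 1 and 2 for every complex. For complex I they were 104.5 CPM against 79.6 and 88.1, within the soleus range of 101.2 to 129.3. For complexes II, III and IV and ATP synthase, EDL 3 lay below all soleus libraries. The part of trimming in the comparisons of nuclear genes was not tested. Atp5b, the catalytic beta subunit, had 1933 ± 428 CPM (SD, n = 3) in EDL, 2400 ± 630 in psoas and 3005 ± 213 (n = 4) in soleus, with a log2 fold change of 0.64 (SE 0.25, edgeR adjusted p 0.0953) in soleus vs EDL. Atp5a1, the alpha subunit beside it, had 1673 ± 372, 2060 ± 335 and 2645 ± 363 CPM. Sdha, the flavin subunit of complex II, a complex with no mitochondrial gene, had 490.5 ± 164, 682 ± 223 and 747 ± 89.96 CPM, and Sdhb, its iron-sulfur subunit, 358 ± 27.2, 418 ± 117 and 540 ± 68.1 CPM. Uqcrc1, a core subunit of complex III, had 325 ± 90.3, 560.2 ± 109 and 620.3 ± 74.4 CPM, and its log2 fold change in soleus vs EDL was 0.93 (SE 0.23, edgeR adjusted p 0.0169). Uqcrc2, the other core subunit, had 413 ± 39.6, 517 ± 99.4 and 600.1 ± 69.6 CPM. For complex I, Ndufs1, a subunit of its peripheral arm, had 419 ± 32.5, 523 ± 127 and 572 ± 71.1 CPM. For complex IV, Cox6c had 410.2 ± 39.6, 496 ± 95.9 and 483 ± 68.9 CPM and Cox4i1 332 ± 74.7, 471 ± 125 and 546 ± 75.5 CPM.

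In soleus vs psoas, no nuclear subunit passed both thresholds. At an adjusted p under 0.05, 1 of 36 complex I subunits and 4 of 15 complex IV subunits were higher, 1 complex I subunit was lower (Ndufb3 was the higher one and Ndufb4 the lower one, named after their values were seen), and no member of the other 3 lists passed, where 7.75% of all genes were higher. The complex IV subunits were Cox6a1, Cox6a2, Cox8a and Cox8b, named after their values were seen. Their log2 fold changes were 0.60 to 0.81, and the median of all 15 on the list was 0.19, beside 0.02 over all genes. In psoas vs EDL, 36 of 36, 4 of 4, 9 of 9, 12 of 15 and 17 of 18 nuclear subunits had positive values with medians of 0.26 to 0.46, beside 0.01 over all genes. Of these, 1, Usmg5 of ATP synthase (named after its value was seen), had an adjusted p under 0.05, as had 11.1% of all genes in either direction (767 of 16112 higher). The tendon markers were lower in psoas than in EDL, 5 of 5 past both thresholds, where 2.11% of all genes passed in either direction (253 of 16112 lower). The macrophage markers had negative values for 5 of 5 in the same comparison, with a median of -1.24, and 1 of them, Mrc1 (named after its value was seen), passed both thresholds (edgeR adjusted p 0.00658). The part of either list in these differences was not tested.

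Nuclear genes that make and process mitochondrial RNA were also examined. None of 19 genes for transcription and maintenance of mitochondrial DNA passed both thresholds in any comparison. Tfam, which packages and activates mitochondrial DNA, had 34.1 ± 4.73 CPM in EDL, 46.6 ± 10.2 in psoas and 40.9 ± 4.15 in soleus. Tfb2m, which opens the promoters, had 37.7 ± 6.20, 49.5 ± 9.57 and 41.3 ± 4.95 CPM. Their edgeR adjusted p values in psoas vs EDL were 0.142 and 0.197. At an adjusted p under 0.05, Top1mt was higher in psoas than in EDL, Polg was higher and Mterf3 lower in soleus than in EDL, and none passed in soleus vs psoas. These 3 were named after their values were seen.

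Of 21 genes for RNA processing and stability, none passed both thresholds, and 6 were higher in soleus than in EDL at an adjusted p under 0.05, where 9.79% of all genes were. Lrpprc, which stabilizes mitochondrial mRNAs, had 65.8 ± 5.03 CPM in EDL, 101 ± 19.1 in psoas and 129 ± 17.0 in soleus (log2 fold change 0.97, SE 0.18, edgeR adjusted p 0.00425 in soleus vs EDL). Its fold change was just under 2. Grsf1, an RNA binding protein of mitochondrial RNA granules, had 69.9 ± 20.7, 103 ± 20.5 and 126 ± 21.2 CPM (0.86, SE 0.23, edgeR adjusted p 0.0246). In psoas vs EDL, Fastk and Fastkd1 were higher at that level, and in soleus vs psoas, Trmt10c was lower, all 3 named after their values were seen.

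Of 22 genes for mitochondrial tRNA synthetases and related enzymes, none passed both thresholds, and 6 were higher in soleus than in EDL at an adjusted p under 0.05, where 9.79% of all genes were. The list holds Lars2, used above as a mark of rRNA carry-over, which was not among the 6 (edgeR adjusted p 0.855). Gatb was higher in psoas than in EDL and Gatc lower in soleus than in psoas at the same level, both named after their values were seen. Kars, the lysyl-tRNA synthetase of both compartments, had 68.1 ± 20.2, 75.2 ± 17.7 and 88.0 ± 18.0 CPM in EDL, psoas and soleus. Of 12 genes for tRNA modification, none passed at either level. Nsun2 and Mto1, with the highest mean CPM among them, had 29.6 ± 8.71 and 18.1 ± 3.13 CPM in EDL, 39.2 ± 5.31 and 23.7 ± 4.75 in psoas, and 42.1 ± 5.70 and 20.8 ± 0.96 in soleus.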

How the data were processed

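Total RNA of EDL, psoas and soleus was sequenced after a Ribo-Zero Globin treatment to deplete rRNA, as 10 libraries of paired reads. The authors trimmed low-quality libraries (Trimmomatic 0.32), aligned reads with TopHat2 2.1.1 to GRCm38, and deposited raw counts per gene after dropping every gene that did not reach 10 reads in 3 or more samples, without normalization. The treatment of reads with several alignments, the strand setting and the run of each library are not given in the sources used here. The methods call the replicates biological, and within each muscle every library has its own animal code, though the methods name fewer mice than codes. The p-values measure the spread between libraries with different codes. Within EDL and psoas this spread also holds differences in trimming, rRNA carry-over and sex. The main fit did not pair the libraries of different muscles that share a code.

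Counts were fitted with edgeR 4.0.16 (quasi-likelihood, TMM, no covariate) in R 4.3.3. Calls required more than a 2-fold difference together with an adjusted p (Benjamini-Hochberg) below 0.01. Ratios were tested with exact permutation (scipy 1.17.1), and other tables were made with Python 3.11.15 and pandas 2.3.3. The fit was tested on simulated data in which 200 genes out of 16112 differed by a log2 value of 3, and 98%, 94.5% and 97% were recovered for psoas vs EDL, soleus vs EDL and soleus vs psoas. The changed genes were drawn from those above a minimum expected count. Their change was larger than that of any mitochondrial mRNA, so the recovery does not show how often differences of the size seen in these mRNAs would be found. Gene symbols, lengths and sequences came from GENCODE M21, which gave a symbol for 16032 of the 16112 genes. Floors (a count of 0 allows 3 counts) and the binomial interval of mt-Tl1 cover counting error only. The nominal 95% intervals of the mRNAs reached 1.96 SE to each side, with the SE of the edgeR fit, which includes the spread between libraries. They are narrower than the edgeR test implies. In psoas vs EDL, 5 of 13 left out 0, while 4 mRNAs had an unadjusted p under 0.05 in edgeR.

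The mitochondrial genes and all lists were chosen with earlier results of these data known. Every mitochondrial mRNA and rRNA is named, with the 4 tRNA genes of highest mean CPM, and from each list of nuclear-encoded mitochondrial proteins the 2 genes of highest mean CPM, since none passed. A gene that this rule names is not reported here. mt-Tl1 and the remaining tRNA genes were named after their values were seen. Libraries of a muscle were compared for identity, and none was a copy of another. Alternatives were DESeq2 1.42.0, limma 3.58.1 (voom), other scalings, filters, thresholds and covariates, and leaving out each library.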

Additional observations from a re-analysis of the deposited data

Results flagged for a closer look

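In the 4 soleus libraries, 36 sets of values were searched for a library far from the others by Dixon's ratio, the gap to the nearest other library over the whole range, at its 95% critical value. Chance alone passes it in about 1 in 20 sets, and 1 set passed the critical value. mt-Tm, the tRNA gene for methionine, had 9.17 normalized CPM in soleus 1 and 3.74 to 4.17 in the other 3 soleus libraries (Dixon's ratio 0.921). Soleus 1 was also the soleus library with high counts at Lars2, at 76901 CPM against 40.6 to 650.1 in the other 3, and whether this bears on mt-Tm was not tested. Groups of 3 libraries were not searched.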

How the results depend on the processing

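None of the 28 mitochondrial genes was called in psoas vs EDL under any setting tried. In soleus vs EDL the count was 1 with DESeq2, 1 with scaling to the summed mitochondrial mRNAs, 2 at an adjusted p under 0.05 with a fold change over 2 and 2 at an adjusted p under 0.05 alone, and 0 to 1 when each library was left out. In soleus vs psoas it was 1, 1 and 1 under that scaling and those thresholds. With the replicate number as a block it was 0 in each comparison, and r of the deviations of same-numbered libraries was between -0.31 and 0.51, over 0.1 in 4 of 9 pairs, so that the numbers do not pair the libraries throughout. With the animal code as a random effect the medians of the mRNAs were 0.73, 0.13 and -0.60. With the replicate block the medians of the mRNAs were 0.77, 0.32 and -0.43. Over all genes, edgeR called 340, 929 and 917 (psoas vs EDL, soleus vs EDL, soleus vs psoas), DESeq2 1095, 1520 and 1382, and edgeR with the block 146, 586 and 539. Shares of all mitochondrial transcripts in EDL, psoas and soleus were 21.005%, 23.7% and 30.1% as a ratio to the counts outside the mitochondrial genome, and 22.9%, 25.5% and 29.5% with nuclear copies added. Sums with the copies hold a read more than once where it was counted at both loci. Without Lars2 and nuclear rRNA the psoas share was 22.5%. For mRNA, adding the copies gave 14.6%, 16.3% and 17.5%, leaving out nuclear rRNA 11.6% in psoas, and the ratio to other counts 12.3% in psoas and 14.4% in soleus. For rRNA, that ratio gave 10.04%, 11.4% and 15.7%, leaving out nuclear rRNA 10.9% in psoas, and untrimmed libraries 7.41% in psoas (psoas 3 alone). For tRNA, it gave 0.0427% in soleus. In untrimmed libraries alone, log2 differences were 0.061 (psoas vs EDL) and 0.0055 (soleus vs psoas) for mt-Rnr2 to mt-Rnr1, and -0.21 (soleus vs EDL) for mt-Nd6 to mt-Nd5. There, EDL 3 and psoas 3 were the only libraries of their muscles. Leaving out each library moved the differences of mt-Rnr2 to mt-Rnr1 in soleus vs EDL between -0.076 and 0.22, of mt-Cytb to mt-Nd1 in psoas vs EDL between -0.026 and 0.23, and of mt-Nd1 to mt-Rnr2 in psoas vs EDL between -0.22 and 0.53. Untrimmed libraries and a table without nuclear copies and rRNA genes were alternatives chosen after seeing the data. The causes of these shifts were not tested. Depth bears on the tRNA genes with means of 0.360 to 1.14 CPM, namely mt-Tt, mt-Td, mt-Tl1, mt-Ti, mt-Tw and mt-Tq. Of these, only mt-Tl1 had counts of 0, in 3 libraries. A count of 0 allows up to 0.0595 to 0.236 CPM, depending on the library.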
